A study of Mus musculus with 36 samples.

Results

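Rpl22 and Rpl22l1 are the 2 genes described here, of 18845 in the deposited table of RiboTag libraries from mouse spinal cord and diaphragm. They were chosen as the rows whose gene symbol is Rpl22 or Rpl22l1, the first because it carries the HA-tagged allele by which the RNA was purified. The study sequenced 36 libraries of HA-purified RNA in 12 groups of 3, at the embryonic age E15.5, the postnatal ages P0.5 and P10, and 2 months (adult). At each age there were 3 groups: synapse-enriched diaphragm muscle of mice with the RiboTag allele and no Cre (Cre-negative diaphragm, genotype Ribo-tag), the same tissue of ChAT-Cre;Ribo-tag mice (Cre-positive diaphragm), and spinal cord of ChAT-Cre;Ribo-tag mice (spinal cord, with no Cre-negative counterpart). All mice of the study thus carried the RiboTag allele, and how many copies of it is not given in the sources used here. The labels do not say that the 3 libraries of a group came from separate animals, so p-values measure only the spread between these libraries, which may be technical.

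Rpl22 encodes a protein of the large ribosomal subunit that binds RNA, and ribosomes can be built without it. Rpl22l1 (Rpl22-like 1) encodes a close paralog that can take its place, and it is known to rise in mice that lack Rpl22, whose protein binds the Rpl22l1 transcript. In the RiboTag allele the last coding exon is followed by a copy with an HA epitope tag. Cre removes the untagged exon, so that Cre-positive cells make HA-tagged Rpl22, and their ribosomes can be pulled down. Here the promoter of Chat, the choline acetyltransferase gene, drove Cre, so the tag is made in cholinergic cells, which include but are not limited to motor neurons. The gene-level values count tagged and untagged Rpl22 transcripts together. They show how much Rpl22 RNA was in the purified material, not how much tagged protein was made.

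In the GRCm38.p6 annotation, whose chromosomes are those of mm10, Rpl22 (gene ID 19934) is a protein-coding gene on chromosome 4 from 152324436 to 152334082 and Rpl22l1 (gene ID 68028) one on chromosome 3 from 28805508 to 28807424. RefSeq gives Rpl22 2 starts and Rpl22l1 1 start. The 120 bases before each start are shown because the levels of both genes are compared throughout, and they let the paralogs' start regions be set side by side. Capitals mark TATAAA, the TATA box letters, on either strand; in the Rpl22l1 stretch the match on the plus strand at position -28 from the start and the match on the minus strand at position -32 overlap.
Rpl22, first start, plus strand, chr4:152324316-152324435: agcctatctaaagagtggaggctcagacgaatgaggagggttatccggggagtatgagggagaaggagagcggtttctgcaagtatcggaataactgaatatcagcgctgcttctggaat
Rpl22, second start, plus strand, chr4:152325606-152325725: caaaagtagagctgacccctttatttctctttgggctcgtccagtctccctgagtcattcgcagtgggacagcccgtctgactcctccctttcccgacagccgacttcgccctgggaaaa
Rpl22l1, plus strand, chr3:28805388-28805507: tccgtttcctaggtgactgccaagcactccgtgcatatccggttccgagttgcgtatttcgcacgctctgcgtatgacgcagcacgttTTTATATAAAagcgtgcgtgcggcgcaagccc
TATAAA was searched on both strands in the 250 bases before each start, as were CCGGAA (the core bound by ETS factors), GGGCGG (the GC box) and CACGTG (an E-box). Of 32851 RefSeq promoters, 12.4% held TATAAA, 12.03% held CCGGAA, 32.7% held GGGCGG and 6.02% held CACGTG in a stretch of the same length. Beyond the stretches shown, TATAAA lay on the minus strand at position -177 from the first Rpl22 start, and GGGCGG on the minus strand at position -140 from the Rpl22l1 start. These letters describe the windows and identify no bound factor.

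Values are in CPM, reads scaled to 1000000 per library. The libraries hold 63.7 to 71.8 M reads each for spinal cord (M, 1000000), 68.2 to 93.7 M for diaphragm without Cre and 85.99 to 107 M for diaphragm with it. Rpl22 had 1086 to 7458 reads per library and Rpl22l1 17403 to 78401, so counting alone gives a relative error of at most 3.03% for Rpl22 and 0.76% for Rpl22l1; this covers counting error only. In each group 1 library could be approximated by adding the other 2 in positive proportions (the intermediate library, replicate 3 in 9 of 12 groups). The misfit was 2.05 to 8.51 counting errors, against 4.47 to 23.7 between the other 2 libraries. In P0.5 Cre-positive diaphragm the weights were 0.03 and 0.96. The intermediate library held the middle value of 50.8% to 88.9% of genes, with ties, also at 0 reads, counted as middle. It held the middle Rpl22 value in 9 groups and the middle Rpl22l1 value in 6. Results are also given without these 12 libraries where a call of either gene changes. Chat had 0 reads in all 12 Cre-negative libraries, 0 to 14 in the 12 Cre-positive diaphragm libraries and 748 to 4825 in spinal cord, where the 6 motor neuron markers summed to 1391 to 2228 CPM. In Cre-positive diaphragm the same markers summed to 0 to 66.0 CPM and in Cre-negative diaphragm to 0.43 to 70.6 CPM. Mnx1 was at 0 in both at every age, but the genotypes differed in how many of the 6 were at 0. Without Cre, 4 markers were at 0 in all 3 libraries at E15.5, 4 at P0.5, 5 at P10 and 2 in the adult. With Cre these numbers were 1, 2, 1 and 1, lower at each age. The 8 skeletal muscle markers summed to 13036 to 71750 CPM in diaphragm of both genotypes and to 1.60 to 3320 CPM in spinal cord.

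Rpl22 was highest in Cre-negative diaphragm at E15.5 and lowest in Cre-positive diaphragm at the adult age. The highest library had 91.1 CPM and the lowest 11.8 CPM, a range of 7.70-fold, against 6.09-fold between the group means. Rpl22l1 was highest in adult spinal cord and lowest in Cre-positive diaphragm at P0.5. It ran from 177 to 1117 CPM over the libraries, a range of 6.33-fold, against 4.37-fold between the group means.

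In Cre-negative diaphragm at E15.5 the 3 libraries had 91.1, 81.1 and 74.2 CPM of Rpl22, a mean of 82.1 ± 8.47 CPM (SD, n = 3, as for every group mean here). Cre-positive diaphragm at that age had 51.1, 41.1 and 47.3 CPM (46.5 ± 5.07), and spinal cord 52.7, 64.8 and 57.9 CPM (58.5 ± 6.05). All Cre-negative libraries lay above all others of that age, and both Cre-positive tissues also did not overlap. At P0.5 Cre-negative diaphragm had 18.4, 41.8 and 37.8 CPM (32.7 ± 12.5), Cre-positive diaphragm 17.1, 12.6 and 17.6 CPM (15.8 ± 2.74) and spinal cord 48.3, 53.7 and 51.3 CPM (51.1 ± 2.70). Replicate 1 of the Cre-negative group stood far below the other 2 and within 1 CPM of the highest Cre-positive library. At P10 the 3 groups came closest, with 28.5, 36.1 and 29.5 CPM (31.3 ± 4.11) in Cre-negative diaphragm, 24.99, 30.6 and 26.9 CPM (27.5 ± 2.83) in Cre-positive diaphragm and 38.5, 40.7 and 40.8 CPM (40.0 ± 1.31) in spinal cord. In the adult, Cre-negative diaphragm had 24.98, 21.6 and 24.3 CPM (23.6 ± 1.81), Cre-positive diaphragm 11.8, 13.5 and 15.1 CPM (13.5 ± 1.65) and spinal cord 38.4, 36.9 and 37.3 CPM (37.5 ± 0.82). The 3 adult groups did not overlap. In the order of the 12 group means, 5 of the 11 neighbouring pairs did not overlap: E15.5 Cre-negative diaphragm against E15.5 spinal cord, E15.5 Cre-positive diaphragm against P10 spinal cord, P10 spinal cord against adult spinal cord, P10 Cre-positive against adult Cre-negative diaphragm, and adult Cre-negative against P0.5 Cre-positive diaphragm.

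Rpl22l1 at E15.5 had 892, 934 and 981 CPM in Cre-negative diaphragm (935 ± 44.5), 417, 477 and 413 CPM in Cre-positive diaphragm (436 ± 35.8) and 577, 753 and 681 CPM in spinal cord (671 ± 88.3). The 3 groups were apart, in the same order as for Rpl22. At P0.5 it had 453, 348 and 338 CPM in Cre-negative diaphragm (380 ± 63.4), 177, 387 and 177 CPM in Cre-positive diaphragm (247 ± 122) and 650, 654 and 674 CPM in spinal cord (660 ± 12.8). Cre-positive replicate 2 lay more than 2-fold above the other 2 libraries of its group and inside the Cre-negative range, while holding the lowest Rpl22 value of that group. At P10 the values were 495, 545 and 477 CPM in Cre-negative diaphragm (506 ± 35.5), 410, 469 and 407 CPM in Cre-positive diaphragm (428 ± 35.1) and 762, 825 and 779 CPM in spinal cord (789 ± 32.8). Adult Cre-negative diaphragm had 530, 385 and 570 CPM (495 ± 97.5), adult Cre-positive diaphragm 260, 331 and 305 CPM (299 ± 36.3) and adult spinal cord 1038, 1117 and 1083 CPM (1079 ± 39.6). Adult spinal cord was above every other group without overlap. Of the 11 neighbouring pairs of Rpl22l1 means, 5 did not overlap: the first 3 places, adult spinal cord, E15.5 Cre-negative diaphragm and P10 spinal cord, were each apart from the next, as was P0.5 spinal cord from P10 Cre-negative diaphragm and P0.5 Cre-negative from adult Cre-positive diaphragm.

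**Figure D1:**
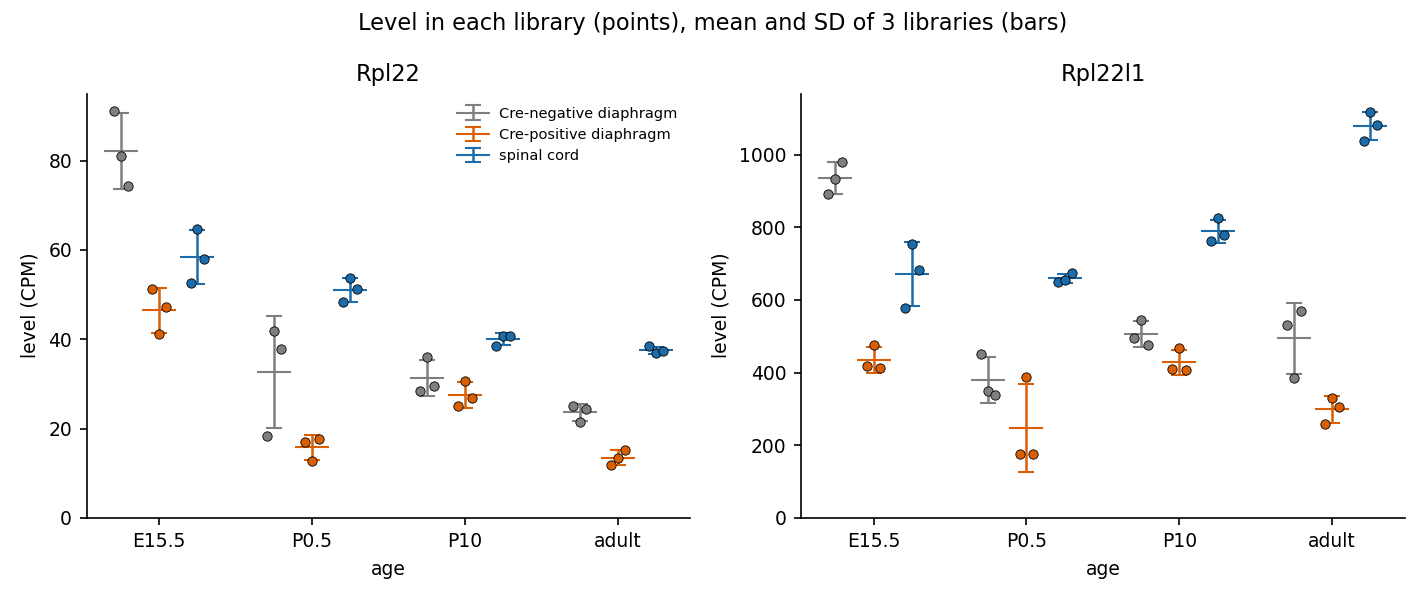
Level in CPM (y axes, from 0) of Rpl22 (left) and Rpl22l1 (right) by age, with 1 point per library and bars for the mean ± SD of 3 libraries in Cre-negative diaphragm (grey), Cre-positive diaphragm (orange) and spinal cord (blue). Cre-positive means lie below Cre-negative means at each age, and Rpl22l1 in spinal cord reaches 1079 CPM in the adult while Rpl22 there is 37.5 CPM.

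The comparison of Cre-positive with Cre-negative diaphragm asks what the purification with Cre recovers over the purification without it. With Cre, Rpl22 and Rpl22l1 were both lower at E15.5, P0.5 and the adult age, and neither passed the test at P10. For Rpl22 the difference of log2(CPM + 1) was -0.81 at E15.5 (95% interval -1.32 to -0.29), -0.94 at P0.5 (-1.45 to -0.42), -0.18 at P10 (-0.70 to 0.34) and -0.77 in the adult (-1.28 to -0.25). The adjusted p from limma was 0.039, 0.0080, 0.85 and 0.047 in the same order. At E15.5, P0.5 and the adult age the 2 groups did not overlap, and at P10 they did. For Rpl22l1 the difference was -1.10 at E15.5 (-1.55 to -0.65), -0.71 at P0.5 (-1.16 to -0.26), -0.24 at P10 (-0.69 to 0.21) and -0.71 in the adult (-1.16 to -0.27), with limma adjusted p of 0.0025, 0.018, 0.72 and 0.034. These groups overlapped at P0.5, through replicate 2 of the Cre-positive group, and did not at the other 3 ages. Over all 13853 genes tested, 11% were called at E15.5, 27.7% at P0.5, 1.45% at P10 and 12% in the adult, in either direction.

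Without the 12 intermediate libraries no single-age Cre difference of either gene was called by limma: the adjusted p was 0.70, 0.34 and 0.76 for Rpl22 and 0.43, 0.33 and 0.62 for Rpl22l1 at E15.5, P0.5 and the adult age, with differences of -0.83, -0.86 and -0.81 and of -1.07, -0.60 and -0.67. In that fit only 0.0527%, 0.813% and 0.105% of all 13284 genes were called at these 3 ages. The calls lost there thus say nothing particular about the 2 genes. The Rpl22 calls at E15.5 and in the adult were also lost on leaving out any 1 of the 6 libraries compared (adjusted p up to 0.12 and 0.15), and those at all 3 ages under quantile or RLE scaling, with edgeR and with DESeq2 (differences of -0.69 to -0.44). In the fit of only the compared groups the P0.5 calls of both genes were lost, at unchanged differences (adjusted p = 0.16 for Rpl22 and 0.21 for Rpl22l1). The Rpl22l1 call at P0.5 was lost without Cre-negative replicate 1 or Cre-positive replicate 1 or 3 (differences of -0.58, -0.52 and -0.52), while without Cre-positive replicate 2 the difference was -1.08. The adult Rpl22l1 call was lost without Cre-negative replicate 1 or 3 or any 1 Cre-positive replicate (adjusted p up to 0.13), and with quantile scaling (-0.51, adjusted p = 0.10). Both these Rpl22l1 calls were also lost with RLE scaling (-0.29 at P0.5 and -0.36 in the adult), edgeR (-0.25 and -0.37) and DESeq2 (-0.25 and -0.36). The Rpl22l1 call at E15.5 kept its threshold under all alternatives except the fit without intermediate libraries. Over the 4 ages together, an exact two-sided permutation test with libraries exchanged within each age gave a mean difference of -0.67 for Rpl22 (adjusted p = 0.0001 over the 6 such tests) and -0.69 for Rpl22l1 (adjusted p = 0.00013), lower at 4 of 4 ages for each. Without the intermediate libraries the exact test gave -0.67 and -0.65, both with an adjusted p of 0.0069. With RLE scaling it gave -0.40 and -0.41, with adjusted exact p of 0.025 and 0.018.

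The size of the Cre difference was not shown to differ between neighbouring ages. From E15.5 to P0.5 it changed by -0.13 for Rpl22 and 0.39 for Rpl22l1 (limma adjusted p = 0.86 and 0.45, 9.9% of all genes called). From P0.5 to P10 it changed by 0.76 and 0.47 (0.17 and 0.34, 10.3% of genes called), and from P10 to the adult by -0.59 and -0.47 (0.41 and 0.46, 4.21% of genes called). Leaving out P0.5 Cre-negative replicate 1, the library with 18.4 CPM of Rpl22, or P0.5 Cre-positive replicate 2, the library with 387 CPM of Rpl22l1, gave an adjusted p as low as 0.011 for the P0.5 to P10 change of the gene concerned.

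Among the 78 other cytosolic ribosomal protein (RP) genes, 46 of the large and 32 of the small subunit, the median Cre difference was -0.18 at E15.5, -0.06 at P0.5, 0.17 at P10 and -0.12 in the adult, against -0.06, -0.01, -0.13 and -0.12 over all genes. At E15.5, 5 of the 78 were higher and 20 lower; at P0.5, 14 and 14; at P10, 1 and 0; in the adult, 4 and 14. With RLE scaling these splits were 7 and 3, 35 and 0, 2 and 0, and 17 and 4. Without the intermediate libraries limma called 0 of 78 at each age, with 17, 19, 4 and 14 at an unadjusted p under 0.05, and only 0.0527%, 0.813%, 0% and 0.105% of all 13284 genes tested were called, so that these counts of 0 say nothing particular about RP genes. Counted from the lowest difference among the 79 genes with Rpl22 included, Rpl22 held place 2 at E15.5, 1 at P0.5, 4 at P10 and 7 in the adult. The number of RP genes with a lower difference than Rpl22l1 was 0, 0, 1 and 7. Both genes thus stood in the low tail of the RP genes at each age, which is a description of their place and not a test.

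**Figure D2:**
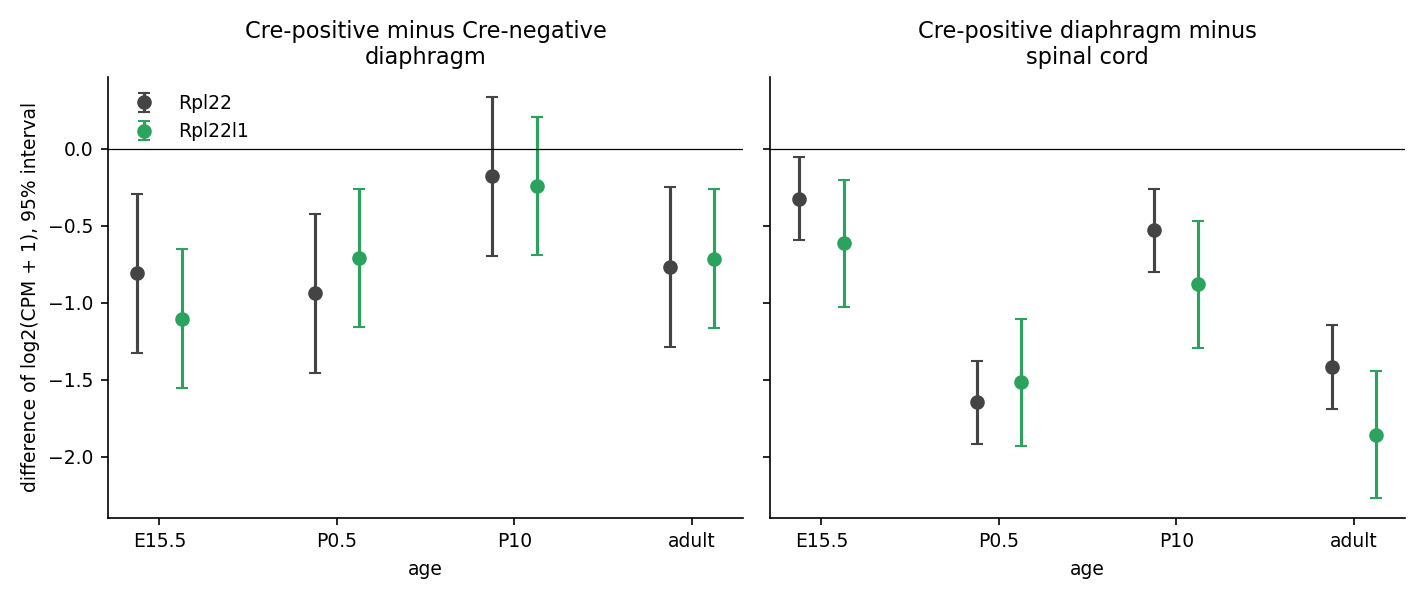
Difference of log2(CPM + 1) with its 95% interval from limma (y axis) by age for Rpl22 (grey) and Rpl22l1 (green), Cre-positive minus Cre-negative diaphragm on the left and Cre-positive diaphragm minus spinal cord on the right, from 3 libraries per group. On the left only the P10 intervals include 0; on the right all intervals lie below 0 in CPM, but with RLE scaling the Rpl22 values at E15.5 and P10 are 0.28 and 0.06.

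Per 10000 reads of the 78 other RP genes, a scale that depends on the RP sum but not on the rest of the library, Rpl22l1 did not overlap between the genotypes at any age. How many of all genes are apart on this scale was not counted. Cre-negative diaphragm had 57.7 to 60.8 Rpl22l1 reads on this scale at E15.5, 46.3 to 62.6 at P0.5, 56.1 to 61.7 at P10 and 47.6 to 62.0 in the adult. Cre-positive diaphragm had 28.2 to 35.9, 25.9 to 44.5, 42.2 to 47.4 and 33.9 to 39.0. Cre-negative diaphragm had group means between 51.9 and 59.0 at all 4 ages, while its CPM moved with the summed RP share, which was 15.9% of reads at E15.5 and 7.32% to 8.73% afterwards. Rpl22 on the same scale did not overlap at E15.5, P10 and the adult age, with 4.60 to 5.89 against 3.09 to 3.46, 3.41 to 4.08 against 2.58 to 3.09, and 2.64 to 2.81 against 1.54 to 1.79. At P10 Rpl22 overlapped in CPM, and the RP share on which this scale rests was itself apart. It was 8.36% to 8.85% of reads without Cre and 9.63% to 9.90% with it. At P0.5 the Cre-negative range was 2.54 to 5.63 and the Cre-positive range 1.45 to 2.58, overlapping through Cre-negative replicate 1. The exact permutation test over ages on this scale gave log2 differences of -0.69 for Rpl22 (adjusted p = 3.75e-05) and -0.68 for Rpl22l1 (adjusted p = 2.5e-05).

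**Figure D3:**
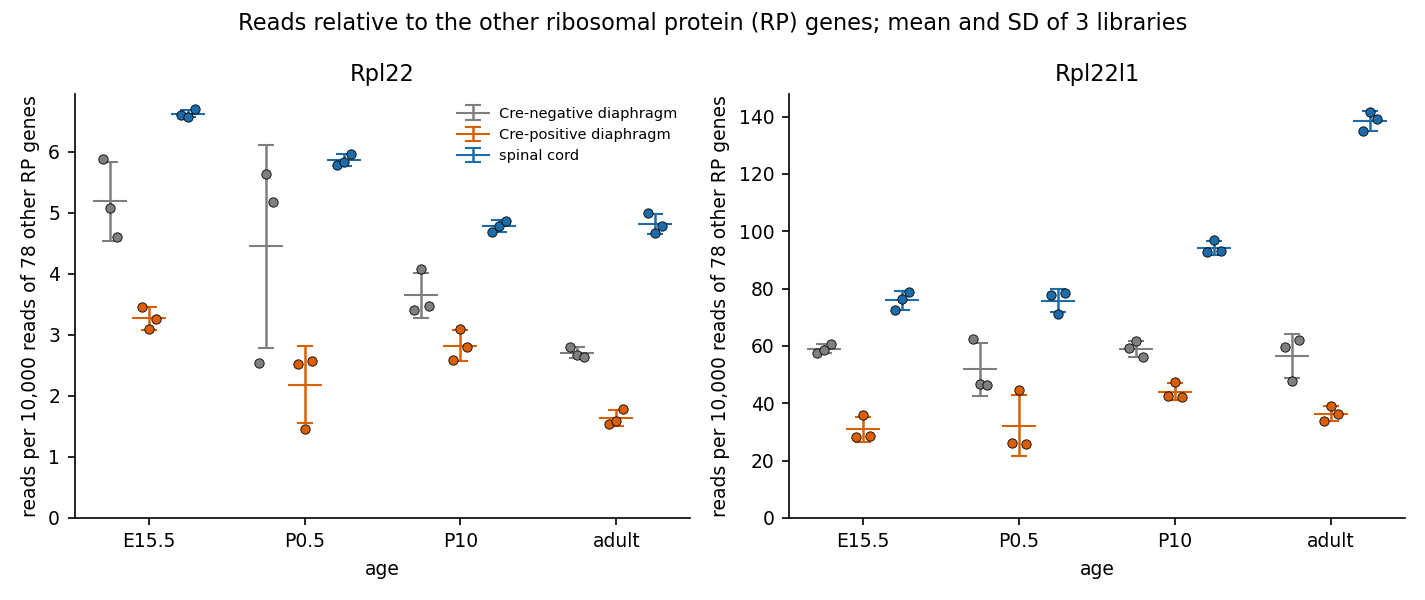
Reads of Rpl22 (left) and Rpl22l1 (right) per 10000 reads of the 78 other ribosomal protein genes (y axes, from 0) by age, with points for libraries and bars for mean ± SD of 3, coloured by group as in the plot of CPM levels. Rpl22l1 libraries of Cre-negative diaphragm lie above those of Cre-positive diaphragm at each age, and adult spinal cord reaches a mean of 138.6.

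Marker sums of other cell types also differed between diaphragm with and without Cre, some lower and some higher with it. The 5 fibroblast markers summed to a mean of 2357 CPM without Cre and 1069 CPM with it at E15.5, then 3589 against 1514 at P0.5, 2139 against 1387 at P10, and 376 against 216 among adults. The 2 genotypes' ranges of this sum did not overlap at any age, and no fibroblast marker was at 0 in any group. The 6 hepatocyte markers had means of 10253 CPM without Cre and 8727 CPM with it at E15.5, and went the other way from P0.5 on, with 103 against 4571 CPM at P0.5, 90.8 against 380 at P10, and 21.5 against 312 among adults. The libraries at P0.5 ran from 60.8 to 132 CPM without Cre and, widely spread, from 1323 to 10642 CPM with it. Apoc3 was at 0 in Cre-negative diaphragm at P0.5 and Serpina1a in the adult. The skeletal muscle sums were lower with Cre without overlap at E15.5, P0.5 and P10 (16382 to 19653 against 13036 to 16149 CPM, 58385 to 71750 against 42121 to 42635, and 40111 to 42151 against 34955 to 36281) and overlapped in the adult. The 5 cartilage markers summed to 2.01 to 85.1 CPM without Cre and 135 to 1521 CPM with it at E15.5, and to 0.27 to 0.84 against 120 to 272 CPM at P0.5. The order was the opposite at P10, with 3.90 to 7.32 against 0.77 to 2.06 CPM, and in the adult the ranges were 0.02 to 0.34 against 1.07 to 2.13 CPM. Cnmd and Matn1 were at 0 in Cre-negative diaphragm at P0.5 and in the adult, and in Cre-positive diaphragm at P10 and in the adult. The erythroid sums overlapped at P10 and in the adult and did not at E15.5 (117783 to 123404 against 129280 to 215918 CPM) or at P0.5 (5864 to 5982 against 7275 to 12927 CPM). Their part in the differences of Rpl22 and Rpl22l1 was not tested. In these purified RNA samples, the number of cells of a type, the RNA per cell and the amount recovered by the purification cannot be told apart.

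Between Cre-positive diaphragm and spinal cord, which have the same genotype, both genes were lower in diaphragm at every age in CPM, with no overlap. For Rpl22 the difference of log2(CPM + 1) was -0.32 at E15.5 (95% interval -0.59 to -0.055), -1.65 at P0.5 (-1.92 to -1.38), -0.53 at P10 (-0.80 to -0.26) and -1.42 in the adult (-1.69 to -1.15), with limma adjusted p of 0.029, 4.2e-10, 0.0011 and 4.0e-09. For Rpl22l1 it was -0.62 (-1.03 to -0.21), -1.52 (-1.93 to -1.11), -0.88 (-1.29 to -0.47) and -1.86 (-2.27 to -1.45), with 0.0084, 7.5e-07, 4.7e-04 and 4.1e-08. The tissues differ in most genes: 73.6%, 75.3%, 73% and 74.8% of 14831 genes were called at the 4 ages, and the median difference over all genes was -0.58, -0.80, -0.63 and -0.72. RLE scaling moved these medians to -0.11, -0.21, -0.20 and -0.23. With it, the Rpl22 difference was 0.28 at E15.5 and 0.06 at P10, neither called, and the Rpl22l1 differences at E15.5 and P10 were -0.0034 and -0.27, not called either. The Rpl22l1 call at P10 was also lost with quantile scaling (-0.36), DESeq2 (-0.27) and edgeR (-0.058), as was that at E15.5 (-0.24, -0.0028 and 0.085). Quantile scaling gave 0.51 and 0.46 for Rpl22 at E15.5 and P10, called in the opposite direction (limma adjusted p = 0.026 and 0.042). In CPM the Rpl22 call at E15.5 was lost without Cre-positive replicate 2 or 3 or spinal cord replicate 2 or 3 (adjusted p up to 0.13). The calls of Rpl22 at E15.5 and P10 and of Rpl22l1 at E15.5 were lost without the intermediate libraries, at -0.34, -0.50 and -0.56 (adjusted p = 0.21, 0.072 and 0.11). The adult Rpl22 call was lost with quantile scaling (-0.29) and edgeR (-0.44). The differences of both genes at P0.5 and of Rpl22l1 in the adult kept their direction and their call under every alternative run.

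Relative to the other RP genes both genes were low in diaphragm. The 78 RP genes had a median tissue difference of 0.71 at E15.5 (67 higher, 0 lower), -0.26 at P0.5 (21 higher, 41 lower), 0.23 at P10 (39 higher, 15 lower) and 0.0042 among adults (25 higher, 26 lower). With RLE scaling the splits were 78 and 0, 53 and 5, 68 and 3, and 65 and 5. Rpl22 held place 1, 3, 6 and 2 from the lowest of 79, and 0, 3, 3 and 1 RP genes were lower than Rpl22l1. Per 10000 RP reads, Rpl22 in spinal cord was 6.63 ± 0.06 at E15.5, 5.86 ± 0.10 at P0.5, 4.78 ± 0.10 at P10 and 4.82 ± 0.16 in the adult, against 3.27 ± 0.19, 2.19 ± 0.64, 2.82 ± 0.25 and 1.64 ± 0.13 in Cre-positive diaphragm. No library of one tissue reached the other's range at the same age. Over the 4 ages the exact permutation test gave -0.98 for Rpl22 and -1.22 for Rpl22l1 in CPM (adjusted p = 3.75e-05 for each, from an unadjusted p of 1.25e-05, the smallest 2-sided value of 160000 arrangements), lower in diaphragm at 4 of 4 ages. With RLE scaling the values were -0.29 (adjusted exact p = 0.063) and -0.50 (0.0039), and per RP reads -1.20 and -1.41 (2.5e-05 each).

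**Figure D4:**
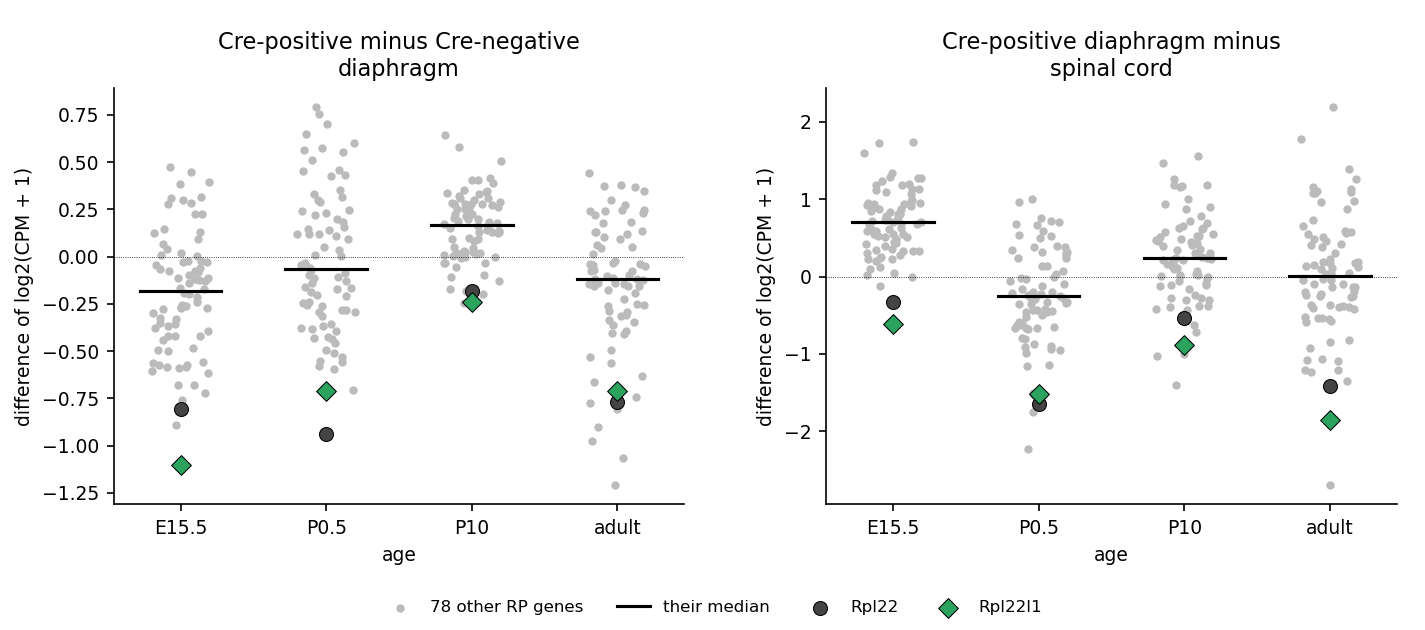
Difference of log2(CPM + 1) (y axes) for each of the 78 other ribosomal protein genes (grey points, black line at their median), Rpl22 (dark circle) and Rpl22l1 (green diamond) at 4 ages, Cre-positive minus Cre-negative diaphragm on the left and Cre-positive diaphragm minus spinal cord on the right. Both genes lie in the low tail; at E15.5 on the right they are below all 78 other genes, which have a median of 0.71.

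The size of the tissue difference changed between ages. For Rpl22 it became more negative by 1.32 log2 units from E15.5 to P0.5, less negative by 1.12 from P0.5 to P10 and more negative by 0.89 from P10 to the adult (limma adjusted p = 1.2e-05, 5.1e-05 and 9.2e-04). For Rpl22l1 the changes were -0.90, 0.64 and -0.97 (0.015, 0.067 and 0.010), of which the middle one was not called. Over all genes 38.7%, 46.5% and 34.3% were called in these comparisons, which were added after the data were seen. Without the intermediate libraries the Rpl22 change from P10 to the adult was -0.9998 (adjusted p = 0.085) and both called Rpl22l1 changes were lost, at -0.75 and -1.02 (0.27 and 0.16). With edgeR the Rpl22 change to the adult was -0.72 (0.059) and the Rpl22l1 change to P0.5 was -0.51 (0.14), and the latter was also lost in the fit of only the compared groups (-0.90, 0.072). Over the 4 ages the Rpl22 mean in Cre-positive diaphragm was 46.5, 15.8, 27.5 and 13.5 CPM, moving down, up and down, and in spinal cord 58.5, 51.1, 40.0 and 37.5 CPM, lower at each step in CPM.

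In spinal cord the paralogs went in opposite directions from P0.5 to P10, where Rpl22 fell and Rpl22l1 rose, and Rpl22l1 rose again to the adult. Rpl22 fell from 58.5 CPM at E15.5 to 51.1 at P0.5 and 40.0 at P10, with changes of log2(CPM + 1) of -0.19 (95% interval -0.34 to -0.03, limma adjusted p = 0.029) and -0.35 (-0.50 to -0.19, 4.1e-04). From P10 to the adult it changed by -0.09 (-0.24 to 0.06, 0.28) and the test was not passed, although the 2 groups did not overlap; with quantile scaling, RLE, edgeR and DESeq2 the value was 0.0049, 0.099, 0.10 and 0.10, also not called. Rpl22l1 changed by -0.02 from E15.5 to P0.5 (-0.18 to 0.14, 0.86), then rose by 0.26 to P10 (0.10 to 0.42, 0.0055) and by 0.45 to the adult (0.29 to 0.61, 7.6e-05). Neither rise had overlapping groups. Of all genes tested in spinal cord, 72.3%, 78.7% and 67.9% were called at these steps. The fall of Rpl22 from E15.5 to P0.5 overlapped between groups and was lost under quantile scaling (-0.10, adjusted p = 0.27), RLE scaling (-0.033, 0.72), edgeR (-0.044, 0.63) and DESeq2 (-0.037, 0.71). It was also lost without the intermediate libraries (-0.19, 0.19), in the fit of only the compared groups (-0.19, 0.066) and on leaving out E15.5 replicate 2 or 3 or P0.5 replicate 1 or 3 (adjusted p up to 0.15). The fall of Rpl22 to P10 and both rises of Rpl22l1 were called under every alternative run, the fit without intermediate libraries included.

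Against the 78 other RP genes, the rise of Rpl22l1 from P10 to the adult was larger than the change of each of them: the highest was 0.40, the median -0.18, with 8 higher and 40 lower (22 and 15 with RLE scaling). At the step from P0.5 to P10, 57 of 78 lay below it, with 27 higher and 38 lower and a median of -0.14. From E15.5 to P0.5, 23 were higher and 34 lower, with a median of -0.05. Per 10000 RP reads Rpl22l1 in spinal cord had 72.4, 76.4 and 78.7 at E15.5, 77.9, 71.1 and 78.4 at P0.5, 92.7, 97.1 and 93.1 at P10, and adult values of 135, 142 and 139. The last 2 ages were each apart from every earlier one. Markers of other spinal cord cells moved over the same ages: the 5 oligodendrocyte markers summed to 48.8 CPM at E15.5, 695 at P0.5, 12795 at P10 and 1728 in the adult, and the 5 astrocyte markers to 96.4, 213, 370 and 184 CPM. The 6 motor neuron markers summed to 2125, 1470, 1721 and 1680 CPM, with none at 0. Since no Cre-negative spinal cord is among the groups, the background of the purification there was not measured, and the part of these cells in the changes was not tested.

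In diaphragm, averaged over both genotypes, Rpl22 fell by 1.44 on the log2 scale from E15.5 to P0.5 and by 0.68 from P10 to the adult (limma adjusted p = 7.8e-07 and 0.0047), while its change of 0.39 from P0.5 to P10 did not pass (0.088). Rpl22l1 fell by 1.11 from E15.5 to P0.5 and rose by 0.66 from P0.5 to P10 (4.0e-06 and 0.0020), and its change of -0.29 to the adult did not pass (0.16). Of all genes, 46.6%, 34.4% and 32% were called at these steps. The first step was shared by the RP genes, of which 0 were higher and 76 of 78 lower, with a median of -1.09. At the last step Rpl22 held place 7 from the lowest of 79, against a median RP change of -0.17. That call of Rpl22 was lost with quantile scaling (-0.51, adjusted p = 0.063), with RLE scaling (-0.40, 0.15), with edgeR (-0.42, 0.15), with DESeq2 (-0.42, 0.12) and without the intermediate libraries (-0.77, 0.18). The rise of Rpl22l1 from P0.5 to P10 was not called without the intermediate libraries either (0.56, adjusted p = 0.14).

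The ratio of Rpl22l1 to Rpl22 compares the paralogs within a library, so that a scaling factor per library cancels in the ratio of CPM. The tests below used the difference of the paralogs' log2(CPM + 1), in which scaling enters through the pseudocount. Because transcript lengths were not used, only its differences between groups are read. In spinal cord the ratio of CPM was 11.4 ± 0.43 at E15.5, 12.9 ± 0.66 at P0.5, 19.7 ± 0.58 at P10 and 28.8 ± 1.67 in the adult. The 4 ages did not overlap, with ranges of 11.0 to 11.8, 12.2 to 13.5, 19.1 to 20.3 and 27.0 to 30.3. In Cre-negative diaphragm the ratio was 11.5 ± 1.71, 13.9 ± 9.22, 16.2 ± 1.14 and 20.8 ± 2.84, and in Cre-positive diaphragm 9.501 ± 1.85, 17.0 ± 11.8, 15.6 ± 0.69 and 22.2 ± 2.18. In both diaphragm genotypes each adult library was above each P10 library, and each P10 library above each E15.5 library. The large spread at P0.5 came from 1 library per genotype, with a ratio of 24.6 in Cre-negative replicate 1 and 30.7 in Cre-positive replicate 2, against 8.32 to 10.3 in the other 4.

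The ratio was not shown to differ between Cre-positive and Cre-negative diaphragm. The mean difference of its log2 over the 4 ages was -0.02 (exact two-sided permutation p = 0.89, adjusted p = 0.89 over the 6 tests; 0.0069 per RP reads), with -0.29, 0.23, -0.06 and 0.06 at the single ages. Between Cre-positive diaphragm and spinal cord it was -0.24 (exact p = 0.084, adjusted p = 0.10; -0.21 with RLE scaling), with -0.29, 0.13, -0.35 and -0.44 at the single ages. At P10 and in the adult every Cre-positive diaphragm library had a lower ratio than every spinal cord library, 15.1 to 16.4 against 19.1 to 20.3 and 20.2 to 24.5 against 27.0 to 30.3. With 3 libraries against 3 at a single age, an exact test cannot go below p = 0.10.

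**Figure D5:**
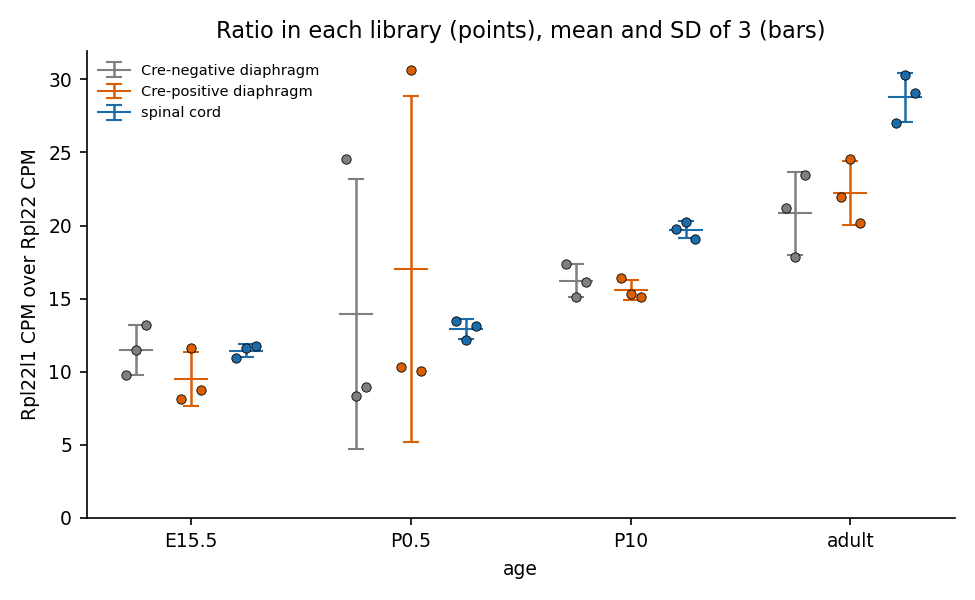
Rpl22l1 CPM divided by Rpl22 CPM (y axis, from 0) by age, with 1 point per library and bars for the mean ± SD of 3 libraries in Cre-negative diaphragm (grey), Cre-positive diaphragm (orange) and spinal cord (blue). The ratio in spinal cord goes from 11.4 at E15.5 to 28.8 in the adult without overlap between ages, and at P0.5 a single library per diaphragm genotype, at 24.6 and 30.7, stands apart.

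Across the 12 group means of log2(CPM + 1), the levels of Rpl22 and Rpl22l1 had a Pearson r of 0.78. Over the 24 diaphragm libraries r was 0.73, and over the 12 spinal cord libraries -0.73, where the points fall into 4 ages; these are descriptions of libraries that share depth and groups. Among genes averaging 10 CPM or more, those most like Rpl22 over the 12 group means were Nucks1, which encodes a nuclear DNA-binding phosphoprotein (r = 0.96), Ralb, a small GTPase (0.95), and Cnot2, a subunit of the CCR4-NOT deadenylase complex (0.95). Over the 36 single libraries Nucks1 kept the first place with r = 0.89, and Cnot2 was the third with 0.88. Those most like Rpl22l1 were Ddx42, an RNA helicase (0.92), Trp53rka, a protein kinase gene with a close copy in the mouse genome (0.91), and Zranb2, a zinc finger protein of the splicing machinery (0.91). Their r over the 36 libraries was 0.78, 0.68 and 0.74, at places 59, 461 and 136 among the 6378 genes compared, so the likeness did not hold up. Rpl22 itself was at place 328 with 0.70, and Ogfrl1, with 0.87, was then the most like Rpl22l1.

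Of the other RP paralogs, Rpl10l and Rps4l were not analysed here. Rpl3l, the striated muscle paralog of Rpl3, was 4.04 to 8.77 log2 units higher in Cre-positive diaphragm than in spinal cord (limma adjusted p at most 4.1e-12), with a mean of 44.8 CPM at E15.5 and 686 in the adult against 1.68 and 0.59 in spinal cord. Its Cre difference was not called at any age. Rpl36al, a paralog of Rpl36a, was 1170 ± 74.8 CPM in adult spinal cord and 854 ± 17.8 at P10, a rise of 0.45 (adjusted p = 4.1e-04), the same size as that of Rpl22l1. Rps27l, a p53-responsive paralog of Rps27, moved the other way at that step, falling by 0.66 (2.6e-07). With Cre, Rpl36al was lower in diaphragm at E15.5 (-0.44, limma adjusted p = 0.024) and Rps27l in the adult (-0.68, 0.0062). No other Cre difference of the paralogs tested was called, against 11% and 12% of all genes at these 2 ages. Rpl7l1 stayed between 12.6 and 28.1 CPM in all group means, and Rpl39l was at 0 in all 3 libraries of 4 diaphragm groups.

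Genes linked to Rpl22 in earlier work were low. Lin28b, an RNA-binding protein gene that rises in Rpl22-deficient thymocytes, had a group mean of at most 2.64 CPM and was at 0 in all diaphragm groups from P0.5 on. Smad2, whose transcript Rpl22 and Rpl22l1 bind in zebrafish, was between 0.42 and 8.55 CPM, and was lower in diaphragm with Cre than in spinal cord at E15.5, P0.5 and the adult age (differences of -0.92, -1.30 and -1.85, limma adjusted p at most 7.2e-05). Mdm4, an inhibitor of p53 whose splicing is tied to Rpl22 and Rpl22l1, was lower with Cre at E15.5 (-1.47, limma adjusted p = 0.021) and higher in the adult (1.39, 0.025), and these values rest on group means of 2.94 to 12.6 CPM. Trp53, which encodes p53, had no called Cre difference. In spinal cord Trp53 rose by 0.21 from E15.5 to P0.5, then fell by 0.95 to P10 and by 0.36 to the adult (limma adjusted p = 0.032, 3.0e-08 and 0.0012). Mdm4 changed at these steps by -0.26, 0.27 and -0.81 (0.022, 0.015 and 2.1e-06). Smad2 was called there only from P0.5 to P10 (-0.68, 4.6e-07). Of all genes, 72.3%, 78.7% and 67.9% were called at these spinal cord steps. Between Cre-positive diaphragm and spinal cord, Mdm4 was higher in diaphragm in the adult (1.66, limma adjusted p = 9.8e-06). Trp53 was lower there at P0.5 and in the adult (-1.09 and -1.18, 0.0011 and 4.8e-04). Between these tissues 73.6%, 75.3%, 73% and 74.8% of all genes were called at E15.5, P0.5, P10 and the adult age. The calls of these linked genes were not examined under the alternatives.

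RefSeq lists 2 pseudogenes named for Rpl22, Gm13196 on chromosome 2 and Rpl22-ps1 on chromosome X, neither of them among the genes of the table. Reads from such copies and from Rpl22 can share sequence, so the level of Rpl22 is uncertain to the extent that the authors' counting assigned them together.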

How the data were processed

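Per the labels, RNA was HA-purified (the tag is on the Rpl22 protein, not on RNA), extracted with an RNeasy micro kit and made into libraries by the BGI protocol. The submitters' processing notes name the mm10 build, RSEM 1.2.12 and Bowtie2 2.2.5, whose role and order are not given in the sources used here. The deposited values are CPM of 18845 genes, each library summing to 1000000; the authors' counting of multi-mapped reads is not given in the sources used here. Whole reads (within 0.1) were recovered from the CPM steps in all 36 libraries, an estimate for P0.5 Cre-positive replicate 3, whose step is close to a round value.

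Tests used limma 3.58.1 (R 4.3.3, trend and robust) on log2(CPM + 1) for genes that reach 1 CPM in 3 or more of a fit's libraries, with Benjamini-Hochberg adjustment over all genes and a threshold of 0.05. Fits covered the 24 diaphragm libraries, the 24 of Cre-positive diaphragm and spinal cord, and the 12 of spinal cord; each shares a spread per gene over its groups. A fold is on the log2(CPM + 1) scale, which understates changes of low genes. Exact permutation tests (160000 arrangements, libraries exchanged within each age, scipy 1.17.1) covered single values over ages. Alternatives were a pseudocount of 0.1, no filter, quantile and RLE scaling, edgeR 4.0.16 and DESeq2 1.42.0 on recovered reads, fits of the compared groups only, a replicate block, and leaving out libraries. The fit was tested on simulated data.

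The members and lists were chosen with earlier results of these data known. Rpl22, Rpl22l1 and Chat are always named, then the 3 genes most like each member over the 12 group means (predicted genes left out), the other ribosomal protein genes by counts and place, and the paralogs and linked genes by level. An order of ribosomal protein genes by level per coding length was planned and not made, since no transcript lengths were used here. RefSeq's list of GRCm38.p6 holds 18719 of the gene identifiers, and is the source of the promoter sequences; 0 columns lacked a sample.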

Additional observations from a re-analysis of the deposited data

Results flagged for a closer look

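By limma's test of the change itself, the difference between Cre-positive diaphragm and spinal cord changed in 5 of the 6 comparisons of neighbouring ages. These comparisons were added after the data were seen, and such changes were common among all genes. Of 14831 genes tested, 38.7% were called from E15.5 to P0.5, 46.5% from P0.5 to P10 and 34.3% from P10 to the adult. For Rpl22 the difference of log2(CPM + 1) moved by -1.32 from E15.5 to P0.5 (adjusted p = 1.2e-05), by 1.12 from P0.5 to P10 (5.1e-05) and by -0.89 from P10 to the adult (9.2e-04). The direction alternated, and the spinal cord means were lower at each step in CPM. For Rpl22l1 it moved by -0.90 from E15.5 to P0.5 (0.015) and by -0.97 from P10 to the adult (0.010). Both Rpl22 values up to P10 were called under all alternatives run; the Rpl22 change to the adult was -0.72 with edgeR (0.059) and -0.9998 without the intermediate libraries (0.085). The Rpl22l1 change to P0.5 was -0.51 with edgeR (0.14), -0.75 without the intermediate libraries (0.27) and -0.90 in the fit of only the compared groups (0.072), and that to the adult was -1.02 without the intermediate libraries (0.16).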

How the results depend on the processing

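Values here are differences of log2(CPM + 1), with limma's adjusted p unless edgeR or DESeq2 is named; the causes of the shifts below were not tested. With quantile scaling the Rpl22 Cre differences at E15.5, P0.5 and the adult age were -0.69, -0.48 and -0.44, and that of Rpl22l1 in the adult -0.51, none of them called. With RLE scaling they were -0.64, -0.53 and -0.44 for Rpl22, and -0.29 at P0.5 and -0.36 in the adult for Rpl22l1, with 0.0054 for Rpl22 at P10. On recovered reads edgeR gave -0.67, -0.61 and -0.45 and DESeq2 -0.67, -0.61 and -0.44 for Rpl22, and edgeR -0.25 and -0.37 and DESeq2 -0.25 and -0.36 for Rpl22l1 at P0.5 and in the adult, none called. Without the intermediate libraries the Cre differences were -0.83, -0.86 and -0.81 for Rpl22 and -1.07, -0.60 and -0.67 for Rpl22l1, and in the fit of only the compared groups those at P0.5 were -0.94 and -0.71 (adjusted p = 0.16 and 0.21). The change of the Rpl22 Cre difference from E15.5 to P0.5 turned sign, to 0.20 with quantile scaling, 0.10 with RLE, 0.060 with edgeR and 0.062 with DESeq2.

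The tissue difference of Rpl22 turned sign at E15.5 and P10, to 0.51 and 0.46 with quantile scaling, 0.28 and 0.062 with RLE, 0.36 and 0.28 with edgeR and 0.28 and 0.064 with DESeq2. In the adult it was -0.29 with quantile scaling and -0.44 with edgeR, not called. That of Rpl22l1 at E15.5 and P10 lost its call, at -0.24 and -0.36 with quantile scaling, -0.0034 and -0.27 with RLE and -0.0028 and -0.27 with DESeq2; with edgeR it was 0.085 at E15.5 and -0.058 at P10. Without the intermediate libraries the calls of Rpl22 at E15.5 and P10 and of Rpl22l1 at E15.5 were lost, at -0.34, -0.50 and -0.56. Over all ages the permutation value of Rpl22 with RLE scaling was -0.29 (adjusted exact p = 0.063), and the Cre value of the ratio was 0.0043 with a pseudocount of 0.1, 0.0069 per RP reads and 0.029 without the intermediate libraries.

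In diaphragm the change of Rpl22 from P10 to the adult was -0.51 with quantile scaling, -0.40 with RLE, -0.42 with edgeR, -0.42 with DESeq2 and -0.77 without the intermediate libraries, none called. That of Rpl22l1 at this step was 0.011 with RLE, 0.031 with edgeR and 0.032 with DESeq2, and was called at -0.29 in the fit of only the compared groups; its change from P0.5 to P10 was 0.56 and not called without the intermediate libraries. In spinal cord the change of Rpl22 from E15.5 to P0.5 was -0.10 with quantile scaling, -0.033 with RLE, -0.044 with edgeR, -0.037 with DESeq2, -0.19 without the intermediate libraries and -0.19 in the fit of only the compared groups, none called. From P10 to the adult it was 0.0049, 0.099, 0.10 and 0.10 with quantile scaling, RLE, edgeR and DESeq2, and that of Rpl22l1 from E15.5 to P0.5 was 0.14, 0.13 and 0.13 with the last 3.

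Leaving out 1 library in turn, the Cre difference of Rpl22 ran from -0.88 to -0.72 at E15.5 and from -0.85 to -0.68 in the adult, and that of Rpl22l1 from -1.08 to -0.52 at P0.5 and from -0.88 to -0.60 in the adult. The change of the Cre difference ran from -0.49 to 0.084 for Rpl22 from E15.5 to P0.5, and from 0.54 to 1.11 for Rpl22 and 0.28 to 0.84 for Rpl22l1 from P0.5 to P10. The tissue difference of Rpl22 at E15.5 ran from -0.40 to -0.24, its diaphragm change from P0.5 to P10 from 0.22 to 0.50 (called only without P0.5 Cre-negative replicate 2), its spinal cord change from E15.5 to P0.5 from -0.26 to -0.11, and that of Rpl22l1 from -0.12 to 0.073. The number of other RP genes called for the Cre difference at E15.5 was 25 in the main setting, 10 with RLE, 7 with edgeR and 12 with DESeq2. Over all genes it was 1522, 1363, 706 and 1530. At P10 it was 1 RP gene in the main setting, 2 without a filter, 3 with quantile scaling and 16 with DESeq2, against 201, 365, 244 and 502 of all genes. In the fit of only the compared groups it was 20 RP genes at P10 (1196 of all genes). At P0.5 it was 28 in the main setting and 6 in that fit, against 3844 and 1252 of all genes. These RP counts thus moved along with counts over all genes in several settings. Without the intermediate libraries 36 of 78 were called for the tissue difference at P0.5 and 25 from P10 to the adult in spinal cord, against 62 and 48. Of all genes, 61.7% and 48.8% were called without these libraries, against 75.3% and 67.9% in the main setting.

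Replicate numbers were not treated as pairs in the main fits. Over 11 pairs of groups, same-numbered libraries had correlations of -0.096 to 0.076 between their deviations from the group means. Such low values show no trace of pairing, but they cannot exclude that same-numbered libraries of 1 age share animals. With the replicate block the Cre difference of Rpl22 in the adult was -0.77 with an adjusted p of 0.058, no longer called, and the Rpl22l1 tissue difference from P0.5 to P10 was called at 0.64 (0.032); the other 38 log2 differences kept their direction and their side of the threshold. A pseudocount of 0.1 and the fit without a filter changed no call of these 40 differences. Counting error is at most 3.03% of a level, below the spread between the 3 libraries in most groups; in adult spinal cord the Rpl22 spread (2.19% of the mean) is close to it, so depth limits the precision there.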
